A study of Mus musculus with 6 samples.

Results

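The ligands that meet PD-1, CTLA-4, TIM-3, TIGIT and their relatives on T cells were followed in 9 genes of the 32285 measured: Cd274, Pdcd1lg2, Cd80, Cd86, Cd276, Lgals9, Pvr, Nectin2 and Vsir, chosen by name. Single-cell RNA was read at the 5′ end from CD45+ cells, enriched with magnetic beads from dissociated and cryopreserved B16-F10 tumors, a melanoma line grown in female C57BL/6 mice aged 6 to 10 weeks. All 6 samples came from mice given anti-PD-1 (150 µg per mouse, 3 times per week from day 7 after the tumor injection). The 3 αPD-1 samples had no corin, and the 3 αPD-1 + corin samples came from mice that also received corin, an inhibitor of the CoREST chromatin complex, at 200 µg per mouse daily from day 6. There was no group without anti-PD-1, so the values bear only on adding corin to it. The labels give 10 mice per treatment group without saying which mice gave which sample or whether tumors were pooled, so p-values measure the spread between these samples, which may be technical.

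A checkpoint ligand is a surface or secreted protein that dampens or helps a T cell when it engages its receptor. PD-L1 (Cd274) and PD-L2 (Pdcd1lg2) engage PD-1, the receptor that the antibody given to every mouse blocks, and interferon-γ is a well-known inducer of PD-L1. In tumors such ligands are carried by macrophages, dendritic cells, neutrophils and other hematopoietic cells as well as by the tumor cells.

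The deposited counts are of unique molecular identifiers (UMIs), and the libraries held 52281422 to 84276739 UMIs over 6433 to 13228 barcodes. After filters on quality and doublets, 28865 of 52899 barcodes were kept. Of 52600 distinct barcode sequences, 299 (0.568%) occurred in more than 1 sample. Cells were clustered without the 9 genes or the listed pathway genes and named from markers into 8 lineages: macrophage (9731 cells), monocyte (1563), neutrophil (2321), dendritic cell (DC, 1493), B (2673), T (3822), melanoma (1885) and fibroblast (991). B cells were 11 to 48 per αPD-1 + corin sample against 709 to 1082 in αPD-1, and neutrophils were 17 to 21 per αPD-1 sample against 102 to 1300, so these classes had 1 poorly counted group each. Melanoma cells and fibroblasts, which a CD45 enrichment does not target, ranged from 84 to 624 and from 40 to 613 per sample. All of the 9 macrophage, 8 B, 7 T, 9 neutrophil, 7 melanoma, 8 fibroblast and 9 mature DC markers had UMIs in their own class in every sample. The library αPD-1 + corin replicate 3 stood apart from the other 2 of its group: it held 1282 T cells against 173 and 325, and the number of genes called in macrophages went from 15 to 2645 when it was left out, and in DC from 46 to 508. Whether this reflects an exchanged sample, a weaker treatment or the tumors themselves cannot be told apart from the labels. Results are therefore given with all 6 samples and, where it matters, without this library. Levels are on the CPM scale, the UMIs of a gene relative to all UMIs of the cells of a class in a sample, and values are listed in the order of replicates 1, 2 and 3.

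On the GRCm39 build with GENCODE vM39, Cd274 lies on the plus strand at chr19:29344529-29365495 with 7 exons in its canonical transcript, and Pdcd1lg2 follows on the same strand at chr19:29388319-29448882 (6 exons), 22823 bases further on. Cd80 (chr16:38275923-38316697, plus strand, 5 exons) and Cd86 (chr16:36424044-36486443, minus strand, 8 exons) are 1789479 bases apart. Pvr (chr7:19637503-19655085, minus strand, 8 exons) and Nectin2 (chr7:19450569-19484408, minus strand, 9 exons) share chromosome 7. Cd276 is at chr9:58431412-58463665 (minus strand, 8 exons), Lgals9 at chr11:78853800-78875798 (minus strand, 10 exons) and Vsir at chr10:60182630-60208463 (plus strand, 7 exons). All 9 are annotated as protein coding.

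RefSeq start-site windows on build GRCm38.p6 were found for 7 of the 9 genes (not for Cd86 and Pvr), and the 250 bases before each start were searched on both strands for the interferon-response core (GAAA, any 2 bases, GAAA) and the NF-kappaB motif. Of 32851 mouse windows, 2.98% and 3.90% hold these motifs. Lgals9 held the interferon-response core and Pdcd1lg2 the NF-kappaB motif, each once, and the other 5 windows held neither. These 2 windows are printed because they hold the matches, and that of Nectin2 because Nectin2 had the largest called change. Capitals mark the match, which for Lgals9 is on the opposite strand to the one printed. They are Pdcd1lg2 (chr19:29410669-29410918, plus strand), Lgals9 (chr11:78984925-78985174, minus strand) and Nectin2 (chr7:19749574-19749823, minus strand, no match), each 5′ to 3′ along the gene.
Pdcd1lg2: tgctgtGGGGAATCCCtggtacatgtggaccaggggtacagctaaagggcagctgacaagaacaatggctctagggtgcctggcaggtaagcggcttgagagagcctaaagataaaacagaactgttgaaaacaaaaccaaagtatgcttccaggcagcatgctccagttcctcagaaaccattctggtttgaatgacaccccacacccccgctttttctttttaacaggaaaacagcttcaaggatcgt
Lgals9: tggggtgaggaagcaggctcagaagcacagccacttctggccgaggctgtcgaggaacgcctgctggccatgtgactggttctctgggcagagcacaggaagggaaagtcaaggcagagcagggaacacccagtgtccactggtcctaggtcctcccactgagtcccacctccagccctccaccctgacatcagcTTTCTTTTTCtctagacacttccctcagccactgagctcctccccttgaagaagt
Nectin2: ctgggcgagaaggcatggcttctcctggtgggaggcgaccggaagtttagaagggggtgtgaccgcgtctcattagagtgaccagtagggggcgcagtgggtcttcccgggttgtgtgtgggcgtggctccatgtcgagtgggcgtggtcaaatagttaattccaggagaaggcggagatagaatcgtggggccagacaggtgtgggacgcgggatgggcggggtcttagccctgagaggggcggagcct
A match of letters is a description and no site of binding was measured.

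Each ligand had its own order of lineages. Over the 6 samples, the mean Cd274 level fell from neutrophils (473 CPM) to macrophages (236), monocytes (188), B cells (164), DC (149), T cells (90.4), melanoma cells (40.2) and fibroblasts (28.2). Neutrophils exceeded macrophages in 6 of 6 samples, by a mean of 1.03 ± 0.31 (SD) on the log2(CPM + 5) scale. Of 63 neighbouring pairs in the orders of the 9 genes, 13 reached 0.03125, the smallest p that an exact sign-flip permutation test over 6 samples can give, and none passed correction over the 63 pairs (smallest adjusted p = 0.151). With that floor the correction could be passed only if most pairs reached it, so its failure says nothing about how far neighbours lie apart. The upper lineage of these 13 pairs was higher in 6 of 6 samples, and in 12 of them the mean difference was larger than its SD. For Cd274 they were neutrophils over macrophages, DC over T cells and T cells over melanoma cells. Vsir had monocytes over macrophages (0.57 ± 0.26 on the log2 scale), DC over B cells, B cells over fibroblasts and fibroblasts over melanoma cells. The others were T cells over fibroblasts for Cd80 and Cd86, monocytes over melanoma cells for Pdcd1lg2, fibroblasts over melanoma cells and macrophages over monocytes for Nectin2, and DC over neutrophils for Cd86 (0.94 ± 1.34, the exception). In the other 50 pairs the order did not hold in every sample.

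Pdcd1lg2 was sparsely counted. Its mean level was 46.4 CPM in neutrophils, 30.6 in DC, 26.3 in T cells, 26.2 in B cells, 12.0 in macrophages and 10.1 in monocytes, against 0.537 in melanoma cells and 0.036 in fibroblasts, where a single UMI was counted among all 6 samples. Melanoma cells and fibroblasts held at most 2 UMIs of it in a sample.

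Of the CD28 and CTLA-4 ligands, Cd80 was led by neutrophils (118 CPM), ahead of monocytes (57.4), DC (48.2), macrophages (31.4) and T cells (22.8), with 7.32 in fibroblasts, 4.36 in B cells and 2.06 in melanoma cells. Cd86 stood at 344 CPM in monocytes, 299 in B cells, 278 in macrophages and 273 in DC, and at 179 in neutrophils, 43.1 in T cells, 10.2 in fibroblasts and 4.70 in melanoma cells. Melanoma cells had the lowest mean of both.

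B7-H3 (Cd276), a B7 relative on stromal and tumor cells, and Nectin2, a ligand of TIGIT and PVRIG, had the opposite pattern. Cd276 was highest in fibroblasts (28.6 CPM), then in melanoma cells (6.85) and macrophages (4.38). Nectin2 was highest in fibroblasts (29.7) and melanoma cells (12.3), then in DC (6.75), macrophages (5.74), monocytes (3.23) and neutrophils (2.05), with 0.488 in T cells and 0.267 in B cells. Pvr (CD155), which engages TIGIT, CD96 and CD226, had UMIs in every lineage, from 57.0 CPM in fibroblasts and 38.2 in monocytes to 22.4 in T cells. Galectin-9 (Lgals9), a secreted lectin described as a ligand of TIM-3, also had UMIs in every lineage, from 259 in monocytes to 72.0 in melanoma cells. For Pvr and Lgals9 no lineage known to lack the gene was at hand as a reference, so the part of free RNA in their levels was not tested. VISTA (Vsir), an inhibitory B7 relative of myeloid and T cells, was highest in monocytes (208), macrophages (142) and neutrophils (112), lower and nearly level in T cells (80.0) and DC (79.3), and low in fibroblasts (12.8) and melanoma cells (3.87).

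**Figure D1:**
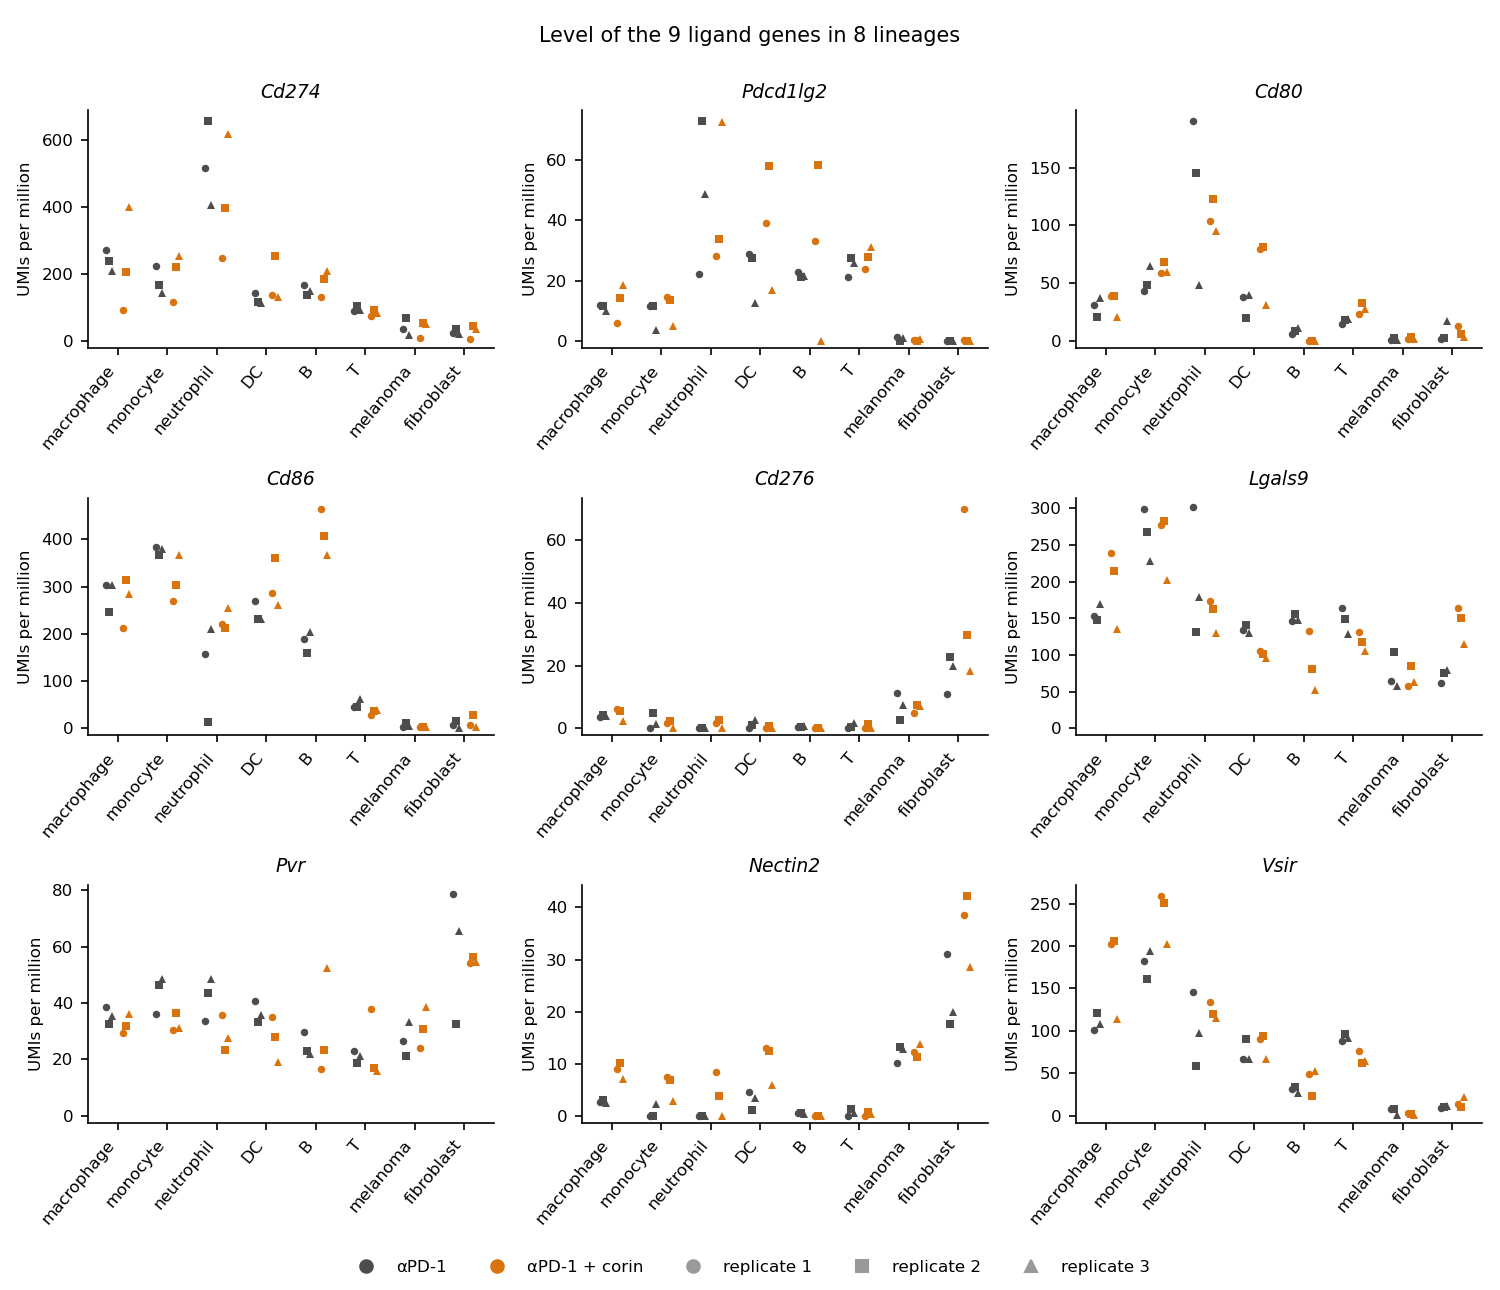
Level of each of the 9 ligand genes (CPM, linear axes from 0, separate scale per gene) in 8 lineages, with 1 point per sample, αPD-1 and αPD-1 + corin side by side. Cd274 was highest in neutrophils, with a mean of 473 CPM, and Cd276 and Nectin2 in fibroblasts, with means of 28.6 and 29.7.

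Shares of cells with a UMI gave a similar picture once each cell was thinned to 1000 UMIs, with cells shallower than that left out. Cd274 was counted in 36.2% of neutrophils, 19.1% of macrophages and 3.89% of melanoma cells (means of 6 samples), and without thinning in 63.9%, 43.9% and 13%. Cd86 was counted in 27.0% of monocytes and 22.8% of macrophages against 0.612% of melanoma cells, a lineage that is not known to carry it and so serves as a measure of free RNA. Without thinning these were 56.2%, 49.0% and 2.15%. Median depth per sample was 2976 to 4338.5 UMIs in monocytes, 3021 to 4704 in macrophages, 2727 to 3653 in neutrophils and 2822.5 to 5550 in melanoma cells. By the same measure Vsir was in 12.2% of macrophages and 0.484% of melanoma cells (37.5% and 1.83% unthinned). This reference is of the shallow melanoma cells. Without the upper limit on genes, melanoma samples had 0.418 to 1.36 CPM of Cd86 and 0.157 to 1.42 of Vsir. With the limit the means were 4.70 and 3.87. Free RNA in the deeper cells was not tested. For Nectin2 the reference was T cells, at 0.035% (0.159% unthinned, median depth 1753 to 3060.5), against 0.566% in macrophages and 2.55% in fibroblasts (2.47% and 19.7% unthinned).

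Among DC, the small mature class, known by Ccr7, Fscn1 and Ccl22, was set apart from the others. Its samples had 6 to 62 cells, and αPD-1 + corin replicate 3, with 6, was left out of the values, which leaves 3 samples against 2. Cd274 was counted in 29.5% of thinned mature DC against 7.55% of conventional type 1 DC (cDC1) and 13.8% of type 2 (cDC2), with 71.5%, 31.4% and 35.9% unthinned. Median depth per sample was 2589 to 6433 UMIs in mature DC, 4037.5 to 8711.5 in cDC1 and 2968 to 5789.5 in cDC2. Lgals9 ran the other way, at 3.84% in mature DC against 10.1% in cDC1 and 12.2% in cDC2 (14.6%, 42.8% and 40.1% unthinned). These differences between the DC classes were not tested.

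The genes whose log2(CPM + 5) followed each ligand most closely over 48 points (8 lineages in 6 samples), among 9804 genes, are given as a description, since points of 1 sample share its library and its free RNA. Cd274 was most like Pik3ap1 (r = 0.894), Irak2 (0.892) and Mxd1 (0.887), and Pdcd1lg2 most like Sema4d (0.883), Gpr171 (0.875) and Chd7 (0.872). Cd80 followed Rab11fip1 (0.916), Ccrl2 (0.913) and Osm (0.889), while Cd86 followed Nrros (0.947), Themis2 (0.932) and Cybb (0.928). Cd276 ran with Gja1 (0.924), Efemp2 (0.921) and Bdh2 (0.919), and Nectin2 with Ltbp3 (0.902), Phldb1 (0.892) and Efemp2 (0.887). Vsir had the closest partners, Cyba (0.956), Itgb2 (0.942) and Ms4a6b (0.930). Pvr had the loosest, Gsn (0.701), Lif (0.693) and Ptges (0.681), and Lgals9 lay between, with Oas3 (0.820), Msrb1 (0.80) and Sat1 (0.798).

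The question of the design was whether adding corin moved these ligands. Of 72 pairs of a ligand and a lineage, 51 had enough UMIs for the edgeR quasi-likelihood test, and 4 were called at an adjusted p under 0.05 over all genes tested in the lineage: Nectin2 in macrophages, Cd86 in B cells and Cd80 in T cells rose, and Vsir in T cells fell. The other 47 were not called. The 4 calls lay in 3 lineages, and no ligand was called in more than 1 of these. Over all genes the share called was 0.129% in macrophages, 2.02% in B cells and 9.89% in T cells. In the other lineages it ran from 0% in melanoma cells to 2.46% in fibroblasts.

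**Figure D2:**
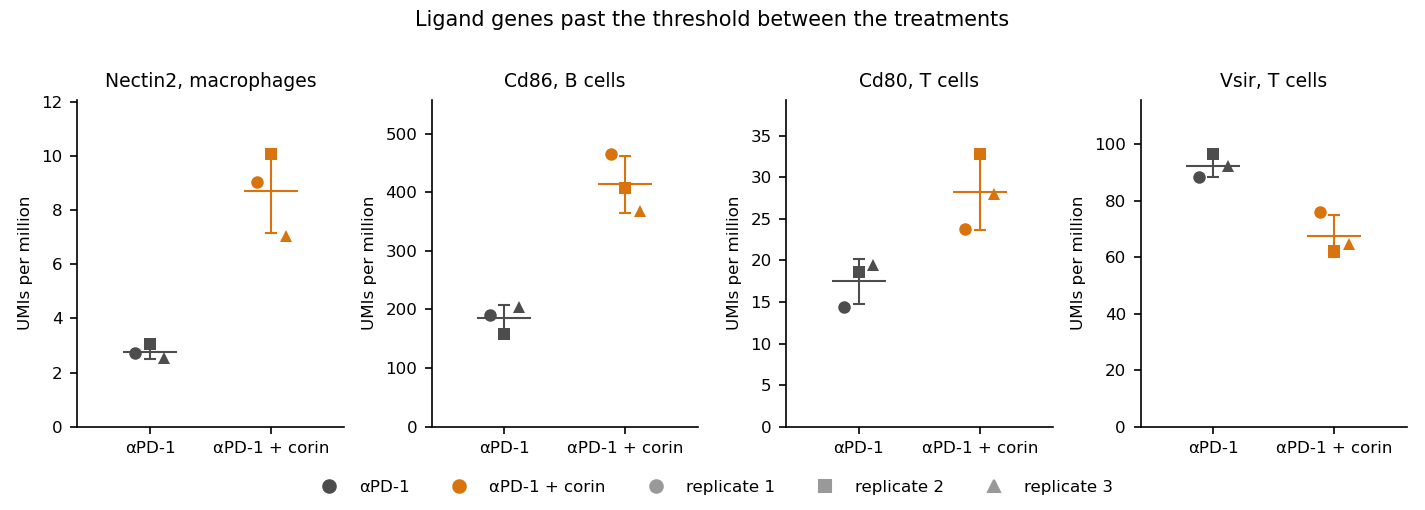
The 4 called pairs of a ligand and a lineage, as CPM (linear axes from 0) with 1 point per sample and the group mean ± SD (n = 3 per group). The groups do not overlap in any of the panels, and Nectin2 in macrophages was at most 3.04 CPM in αPD-1 against at least 7.03 in αPD-1 + corin.

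Nectin2 in macrophages had the largest called change. Nectin2 was at 2.71, 3.04 and 2.54 CPM in αPD-1 and 9.06, 10.1 and 7.03 in αPD-1 + corin, from 8 to 16 UMIs per αPD-1 sample and 43 to 151 per αPD-1 + corin sample. Every αPD-1 + corin sample was above every αPD-1 sample (log2 fold change 1.79 ± 0.25 SE, adjusted p = 0.0428). The make-up of the class differed too. The cluster led by Lyve1 and Folr2 held 82 of 917, 79 of 953 and 56 of 779 macrophages in αPD-1 and 2114 of 4398, 400 of 1254 and 101 of 1430 in αPD-1 + corin, and it had the most Nectin2 of the 4 largest clusters, at a mean of 4.52 CPM in αPD-1 against 3.13, 1.96 and 1.84. Within that cluster Nectin2 was at 7.36, 3.26 and 2.93 CPM in αPD-1 and 10.9, 16.0 and 8.10 in αPD-1 + corin, on 1 to 4 UMIs per αPD-1 sample. The part of the make-up in the result was not tested. Nectin2 was 1 of 9 ligands called among macrophages, where 0.129% of 11672 genes were called, and the median of the 9 was 0.32 on the log2 scale against 0.00 over all genes. In thinned macrophages Nectin2 was in 0.222% of αPD-1 cells and 0.909% of αPD-1 + corin cells on average (p = 0.1 in a two-sided exact permutation test, the smallest that 3 samples against 3 allow). Without αPD-1 + corin replicate 3 the log2 fold change was 1.92 (adjusted p = 0.000846), while leaving out any 1 of the other 5 samples kept it between 1.69 and 1.87 with adjusted p from 0.0934 to 0.262.

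Fibroblasts and endothelial cells carried more Nectin2 than macrophages, so their markers in the macrophage class are given beside it. The summed level of the 8 fibroblast markers there was 11.3, 3.99 and 4.77 CPM in αPD-1 and 17.0, 6.22 and 11.9 in αPD-1 + corin. The 8 endothelial markers summed to 64.1, 88.4 and 57.5 CPM in αPD-1 and 35.7, 53.6 and 82.9 in αPD-1 + corin, and the 7 melanoma markers to 437, 375 and 461 CPM in αPD-1 and 279.6, 284 and 397 in αPD-1 + corin. The fibroblast sums overlapped between the groups, and the endothelial and melanoma sums were not higher throughout αPD-1 + corin. Up to 3 fibroblast markers and up to 4 endothelial markers were at 0 in a sample. The part of these cells in the result was not tested. With cells holding UMIs of T cell, B cell, melanoma or fibroblast markers left out, the log2 fold change was 1.79 (adjusted p = 0.0658). That filter used no endothelial markers, so cells holding endothelial RNA were kept in it.

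In DC and monocytes the direction was the same, in counts too low to pass the filter. Nectin2 was at 4.64, 1.15 and 3.41 CPM in αPD-1 and 13, 12.4 and 5.92 in αPD-1 + corin for DC, where all 3 αPD-1 + corin samples lay above the αPD-1 samples. Monocytes had 0, 0 and 2.23 CPM in αPD-1 and 7.37, 6.85 and 2.91 in αPD-1 + corin. With no filter on low counts Nectin2 was called in DC, on 10 UMIs in αPD-1. T and B cells, also filtered out, went the other way on at most 5 UMIs per group. Their means were 0.624 and 0.534 CPM in αPD-1 and 0.351 and 0 in αPD-1 + corin. Neutrophils had no UMI in αPD-1, which allows up to 13.7 CPM, and a mean of 4.09 CPM in αPD-1 + corin. In melanoma cells, which carried more Nectin2, the groups overlapped, at 10.1, 13.3 and 12.9 CPM in αPD-1 and 12.3, 11.4 and 13.7 in αPD-1 + corin (log2 fold change 0.10 ± 0.32 SE, adjusted p = 0.968). In fibroblasts the values were 31.1, 17.6 and 20.0 CPM in αPD-1 and 38.6, 42.2 and 28.6 in αPD-1 + corin and also overlapped (log2 fold change 0.59 ± 0.34 SE, adjusted p = 0.3). The difference of the effects in macrophages and melanoma cells was 1.61 ± 0.28 on the log2 scale (limma, unadjusted p = 0.000307, adjusted p = 0.453), with no gene of 8853 called (0%) and 506 under an unadjusted p of 0.05.

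Cd86, the ligand through which B cells and other presenting cells engage CD28, rose in B cells. Cd86 was at 190.1, 159 and 205 CPM in αPD-1 and 465, 408 and 367 in αPD-1 + corin, on 262 to 486 UMIs per αPD-1 sample but 7 to 35 per αPD-1 + corin sample. The groups were well apart (log2 fold change 1.13 ± 0.23 SE, adjusted p = 0.000413). This was 1 of 6 ligands tested in B cells, where 2.02% of 7976 genes were called, and the median of the 6 was 0.15 against -0.19 over all genes. The call was lost without αPD-1 + corin replicate 1 (log2 fold change 0.98, adjusted p = 0.0813) or replicate 2 (0.99, adjusted p = 0.0995). Neutrophil markers in the B cell class summed to 25.3, 23.6 and 62.8 CPM in αPD-1 and 714, 1002 and 0 in αPD-1 + corin, and T cell markers to 125, 84.2 and 117 CPM in αPD-1 and 16.6, 0 and 0 in αPD-1 + corin, and their part in the result was not tested. Cd80, the other CD28 ligand, was at 6.32, 8.48 and 11.4 CPM in αPD-1 B cells and at 0 of 165127 UMIs in αPD-1 + corin, which allows up to 18.2 CPM, so no difference was detectable at this depth.

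T cells held the other 2 calls, of 7 ligands tested, in a lineage where 9.89% of 9894 genes were called. The median of the 7 was -0.14 against -0.01 over all genes. Cd80 was at 14.4, 18.6 and 19.5 CPM in αPD-1 and 23.8, 32.8 and 28.0 in αPD-1 + corin (log2 fold change 0.77 ± 0.19 SE, adjusted p = 0.023). Vsir was at 88.4, 96.4 and 92.2 CPM in αPD-1 and 76.1, 62.1 and 64.7 in αPD-1 + corin (log2 fold change -0.45 ± 0.12 SE, adjusted p = 0.0363). Both were small changes with no overlap between the groups: all 3 αPD-1 + corin samples were higher for Cd80 and lower for Vsir. The T cell class held different clusters in the 2 groups. The cluster led by Dapl1, Lef1 and Tcf7, of which the last 2 are known from naive T cells, held 315 of 709, 310 of 776 and 184 of 557 T cells in αPD-1 but 8 of 173, 8 of 325 and 13 of 1282 in αPD-1 + corin. In αPD-1 this cluster had Cd80 at 4.39, 4.66 and 0 CPM (at most 4 UMIs) and Vsir at 114, 104 and 105. With its cells left out, a step chosen after the data were seen, Cd80 was at 18.9, 23.9 and 25.0 CPM in αPD-1 and 24.4, 33.2 and 28.1 in αPD-1 + corin, and Vsir at 76.9, 93.7 and 88.5 against 78.1, 60.9 and 64.6. The groups then overlapped for both genes. In thinned cells Vsir was in 9.85% of αPD-1 and 7.61% of αPD-1 + corin T cells (p = 0.1, the exact permutation test's smallest).

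The T cell calls depended on how cells were chosen. Finer clustering gave log2 fold changes of 0.70 for Cd80 (adjusted p = 0.0662) and -0.11 for Vsir (adjusted p = 0.680), and keeping cells with over 4000 genes gave 0.42 (adjusted p = 0.357) and -0.23 (adjusted p = 0.339). Leaving out single samples gave adjusted p from 0.0217 to 0.123 for Cd80 and from 0.0277 to 0.152 for Vsir. Markers of other cells moved with the groups in this class: B cell markers summed to 439, 372 and 528 CPM in αPD-1 and 119, 162 and 57.1 in αPD-1 + corin, monocyte markers to 730.0, 762 and 792 CPM in αPD-1 and 1068, 1139 and 1197 in αPD-1 + corin and neutrophil markers to 52.3, 53.8 and 67.3 CPM in αPD-1 and 164, 364 and 91.6 in αPD-1 + corin. B cell markers were lower and monocyte and neutrophil markers higher in every αPD-1 + corin sample, and their part in the results was not tested. Macrophages and T cells differed in the effect on Vsir by 1.16 ± 0.27 on the log2 scale (limma, unadjusted p = 0.00277, adjusted p = 0.208), with no gene of 9509 called (0%) and 1027 under an unadjusted p of 0.05.

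**Figure D3:**
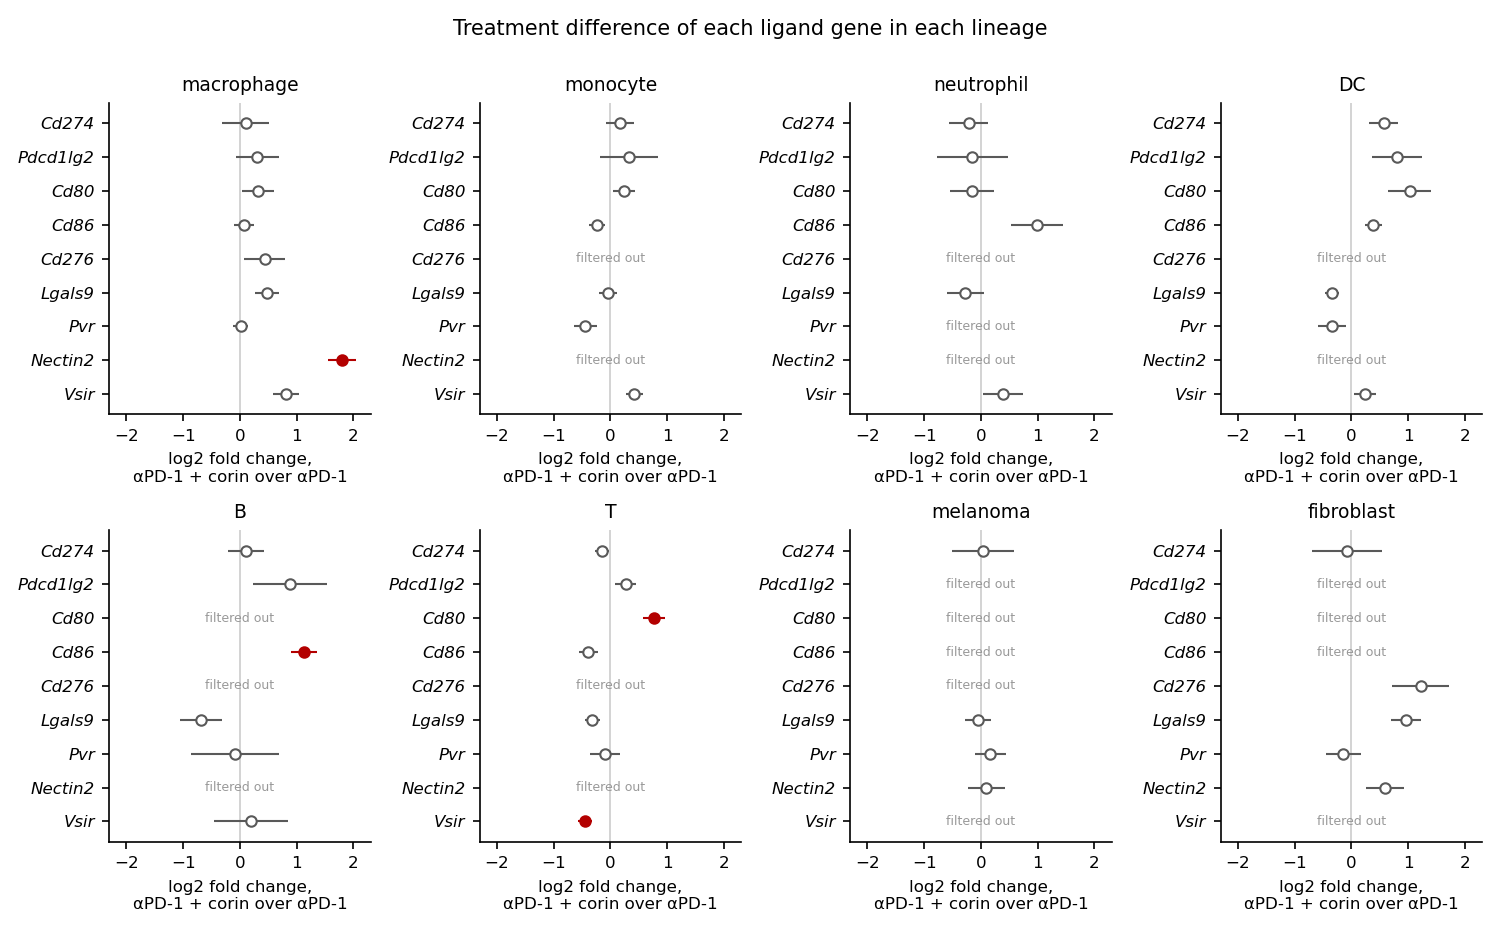
Log2 fold change of αPD-1 + corin over αPD-1 for each ligand that passed the filter on low counts, by lineage, with bars of 1 SE (edgeR, 3 samples per group). Filled red points are the 4 called pairs, and the open points of Cd274 lie between -0.21 in neutrophils and 0.57 in DC.

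Cd274 itself, the PD-L1 gene, was not called in any lineage with the filter on low counts. With no such filter it was called in DC, as given below. In macrophages the values were 271, 237 and 210.0 CPM in αPD-1 and 93.2, 207 and 400.1 in αPD-1 + corin (log2 fold change 0.10 ± 0.41 SE, adjusted p = 0.918). The αPD-1 + corin samples lay on both sides of the αPD-1 samples, with replicate 1 below all of them and replicate 3 above. Without replicate 3 the log2 fold change was -0.53. The Lyve1 cluster, with the least Cd274, made up 48.1% of the macrophages of replicate 1, 31.9% of replicate 2 and 7.06% of replicate 3, against 7.19% to 8.94% in αPD-1, and its part was not tested. Irf1, of the listed interferon pathway and named here after its values were seen, had the same order of samples within αPD-1 + corin: Irf1 was at 269, 234 and 231 CPM in αPD-1 and 102, 205 and 384 in αPD-1 + corin. Its part in the Cd274 values was not tested.

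The spread of αPD-1 + corin samples was wide in the other myeloid cells too. Neutrophils had 514, 655 and 406 CPM in αPD-1 and 247, 398 and 616 in αPD-1 + corin (log2 fold change -0.21 ± 0.34 SE, adjusted p = 0.85), and monocytes 223, 168 and 143 CPM in αPD-1 and 117, 221 and 252 in αPD-1 + corin (log2 fold change 0.16 ± 0.25 SE, adjusted p = 0.797). In both, replicate 1 of αPD-1 + corin was the lowest sample. Among the macrophage clusters, the cluster led by Arg1 and Mmp12 had 424, 494 and 348 CPM in αPD-1 and 196, 316 and 809 in αPD-1 + corin. The cluster led by Lyve1 and Folr2 had the least Cd274, at 58.9, 22.8 and 111 CPM in αPD-1 and 66.6, 135 and 93.9 in αPD-1 + corin. Replicate 3 was the highest sample of the Arg1 cluster and not of the Lyve1 cluster.

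**Figure D4:**
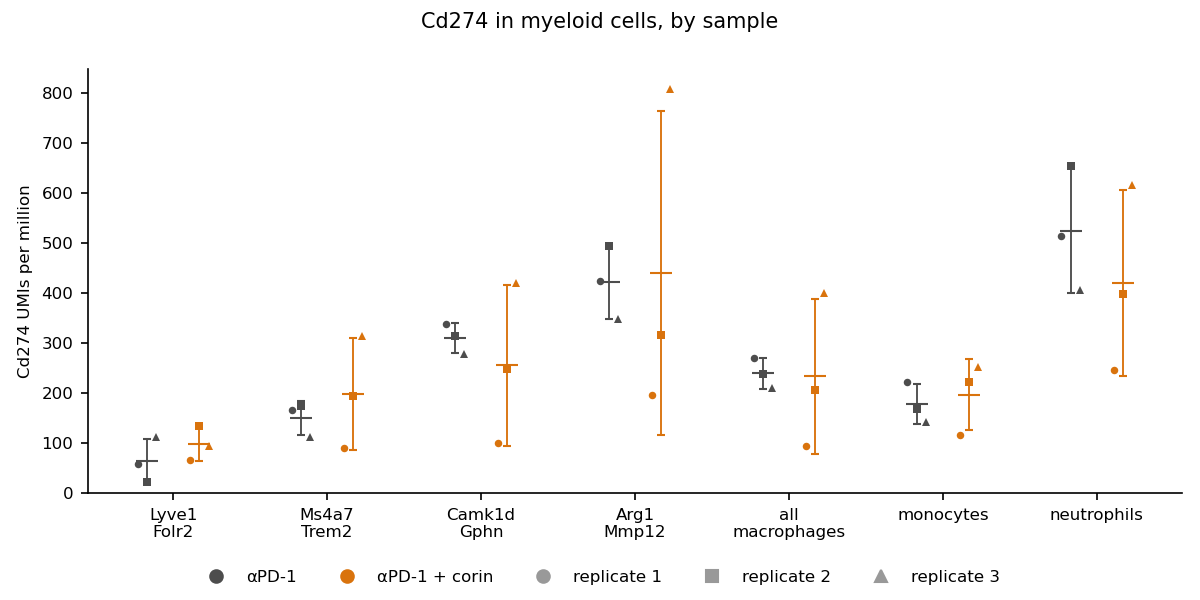
Cd274 level (CPM, linear axis from 0) in macrophage clusters, monocytes and neutrophils, with 1 point per sample and group means ± SD. In macrophages αPD-1 + corin replicates 1 and 3, at 93.2 and 400 CPM, enclosed the 3 αPD-1 samples.

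Melanoma cells, fibroblasts and lymphocytes gave no call for Cd274 either. Melanoma cells had 36.6, 69.2 and 19.3 CPM in αPD-1 and 9.68, 54.0 and 52.5 in αPD-1 + corin (log2 fold change 0.03 ± 0.54 SE, adjusted p = 0.997), on 18 to 168 UMIs. Without a ceiling on genes in a cell, which keeps 461 to 1801 melanoma cells per sample, the values were 25.4, 30.2 and 18.8 CPM in αPD-1 and 7.62, 24.6 and 59.6 in αPD-1 + corin. T cells had 91.1, 106 and 93.3 CPM in αPD-1 and 76.1, 92.8 and 83.3 in αPD-1 + corin (log2 fold change -0.14 ± 0.12 SE, adjusted p = 0.51), lower in every thinned αPD-1 + corin sample (p = 0.1, the smallest the exact permutation test gives). Among melanoma cells 0 of 4 ligands tested were called, and 12.6% of the 9465 genes had groups that did not overlap, but none of the 9 ligands. Over all genes edgeR called 0 there (0%), with 681 at an unadjusted p under 0.05 and 6 by DESeq2.

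In DC, Cd274 stood at 143, 115 and 112 CPM in αPD-1 and 138, 254 and 133 in αPD-1 + corin (log2 fold change 0.57 ± 0.25 SE, adjusted p = 0.418). In edgeR with no filter on low counts it was called (0.60 ± 0.16 SE, adjusted p = 0.0104), where 533 of 18552 genes were. Within mature DC the 2 αPD-1 + corin samples were higher, 323, 298 and 267 CPM in αPD-1 and 522 and 705 in αPD-1 + corin (log2 fold change 0.99 ± 0.29 SE, adjusted p = 0.152). With no filter on low counts edgeR called it in this class too (1.27 ± 0.33 SE, adjusted p = 0.0209), where 120 of 13069 genes were called. Pdcd1lg2 in mature DC was at 143, 19.9 and 17.2 CPM in αPD-1 and 119 and 178 in αPD-1 + corin (log2 fold change 1.10 ± 0.61 SE, adjusted p = 0.494). The PD-L2 values rested on 1 to 28 UMIs per sample and overlapped.

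Cd80 and Cd86 in mature DC ran the same way. Cd80 was at 85.6, 59.6 and 94.6 CPM in αPD-1 and 254 and 248 in αPD-1 + corin (log2 fold change 1.52 ± 0.36 SE, adjusted p = 0.072), and Cd86 at 304, 179 and 309.5 CPM in αPD-1 and 438 and 603 in αPD-1 + corin (log2 fold change 0.86 ± 0.32 SE, adjusted p = 0.268). The 4 ligands that passed the filter in mature DC had positive fold changes (median 1.04 on the log2 scale against -0.04 over all genes), and none was called where 1.06% of 2172 genes were. Cd80 and Pdcd1lg2 passed it only through the αPD-1 + corin samples, where they were high. The shared direction and the median are therefore partly set by the filter. Of the 4, 3 had no overlap between the groups, against 28.7% of genes. That count includes Cd80 and is also partly set by the filter. Among the ligands filtered out, mean levels in αPD-1 and αPD-1 + corin were 73.6 and 60.2 CPM for Pvr and 34.8 and 45.0 for Lgals9. They were 30.5 and 31.9 for Vsir and 9.21 and 37.1 for Nectin2, and Cd276 had no UMI. In all DC together, Cd80 was at 38.1, 19.6 and 40.0 CPM in αPD-1 and 79.5, 81.3 and 30.9 in αPD-1 + corin (log2 fold change 1.03 ± 0.38 SE, adjusted p = 0.346). Without αPD-1 + corin replicate 3, the lowest of its group, it was called (log2 fold change 1.36 ± 0.21 SE, adjusted p = 0.00216). The mature DC markers of the DC class summed to 785, 441 and 869 CPM in αPD-1 and 988, 1337 and 172 in αPD-1 + corin, again lowest in replicate 3, and their part in the Cd80 values was not tested.

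**Figure D5:**
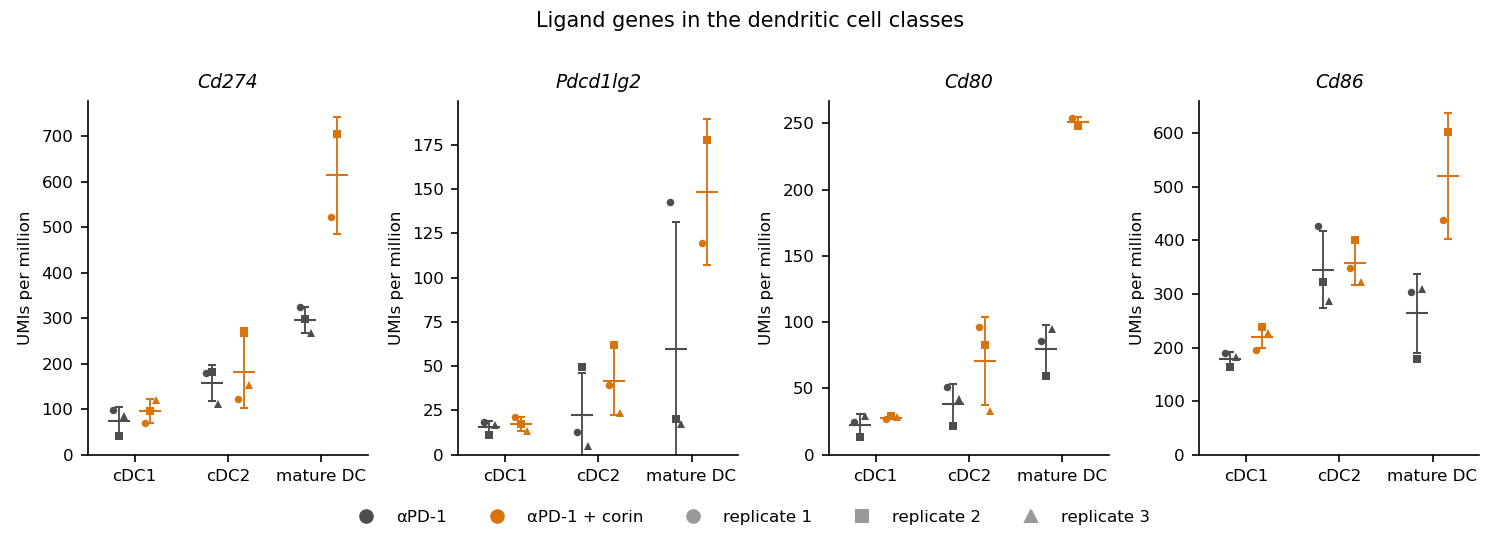
Cd274, Pdcd1lg2, Cd80 and Cd86 (CPM, linear axes from 0) in cDC1, cDC2 and mature DC, with 1 point per sample and group means ± SD, cut at 0 (n = 3 and 2 in mature DC, otherwise 3 per group). In mature DC, Cd80 was at most 94.6 CPM in αPD-1 and at least 248 in αPD-1 + corin.

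Neither of the other DC classes had a ligand called, of 7 tested in each, where 0.901% of 7217 genes (cDC1) and 0.0901% of 5548 (cDC2) were called. Lgals9 was lower in every αPD-1 + corin sample of cDC1, 139, 115 and 136 CPM in αPD-1 and 86.3, 88.9 and 84.1 in αPD-1 + corin (log2 fold change -0.56 ± 0.16 SE, adjusted p = 0.176). Over all DC it was at 134, 140.5 and 130.4 CPM in αPD-1 and 106, 101 and 95.3 in αPD-1 + corin (log2 fold change -0.34 ± 0.12 SE, adjusted p = 0.332), and 0 of 7 ligands were called there against 0.520% of 8840 genes. In DC, 1 of the 7 was lower without overlap, against 16.8% of genes without overlap in either direction.

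The fold change of Lgals9 was positive in macrophages and fibroblasts. In macrophages it was at 153, 147 and 170.0 CPM in αPD-1 and 239, 215 and 135 in αPD-1 + corin (log2 fold change 0.47 ± 0.21 SE, adjusted p = 0.28). Replicate 3 of αPD-1 + corin was below all αPD-1 samples and the other 2 above, and without it Lgals9 was called (log2 fold change 0.69 ± 0.13 SE, adjusted p = 0.00531). The replicates with more Lgals9 are those with more cells of the Lyve1 cluster, where Lgals9 was at a mean of 225 CPM in αPD-1, against 136 to 214 in the other 3 large clusters, and the part of this make-up was not tested. In fibroblasts all 3 αPD-1 + corin samples were higher, 62.3, 75.6 and 79.9 CPM in αPD-1 and 164, 150.1 and 114 in αPD-1 + corin (log2 fold change 0.96 ± 0.26 SE, adjusted p = 0.0698). The effects in macrophages and DC differed by 0.77 ± 0.23 (limma, unadjusted p = 0.00985, adjusted p = 0.451), with no gene of 8764 called (0%) and 803 under an unadjusted p of 0.05. The effects on Cd80 differed by -0.69 ± 0.22 between the same lineages (unadjusted p = 0.0131, adjusted p = 0.456).

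Vsir in macrophages had a like dependence on replicate 3 in the main edgeR fit. It was at 102, 121 and 108 CPM in αPD-1 and 203, 206 and 115 in αPD-1 + corin (log2 fold change 0.81 ± 0.23 SE, adjusted p = 0.157), with the first 2 αPD-1 + corin samples well above αPD-1 and the third within it. Without replicate 3 it was called (log2 fold change 1.05 ± 0.12 SE, adjusted p = 0.000582). With all 6 samples it was also called under DESeq2 (0.82 ± 0.23 SE, adjusted p = 0.0279), where 260 of 11672 genes were. In edgeR with no filter on low counts it was called too (0.85 ± 0.18 SE, adjusted p = 0.00167), where 846 of 22029 genes were. The first 2 αPD-1 + corin samples are also the ones with the larger Lyve1 cluster, which had the most Vsir of the 4 large clusters in αPD-1. Within it Vsir was at 129, 194 and 123 CPM in αPD-1 and 259, 315 and 223 in αPD-1 + corin (log2 fold change 0.98 ± 0.22 SE, adjusted p = 0.0625), higher in every αPD-1 + corin sample, and the part of the make-up was not tested. In monocytes Vsir was higher in all 3, at 182, 161 and 194 CPM in αPD-1 and 259, 251 and 202 in αPD-1 + corin (log2 fold change 0.42 ± 0.14 SE, adjusted p = 0.152). The monocyte markers of the macrophage class summed to 1332, 1068 and 1635 CPM in αPD-1 and 3387, 3048 and 1255 in αPD-1 + corin, with replicate 3 again at the αPD-1 level, and their part in the Vsir values was not tested.

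In monocytes 0 of 7 ligands were called against 1.63% of 7776 genes, and 1 of the 7 was higher without overlap where 21.5% of genes did not overlap. In neutrophils 0 of 6 were called against 0.962% of 3847 genes, and 1 of the 6 was higher without overlap against 20.4% of genes. Among macrophages 1 of the 9 did not overlap against 27.6% of genes, among B cells 2 of 6 against 27.1% (Cd86 higher and Lgals9 lower), and among T cells 3 of 7 against 28.8%. In B cells Cd80, Cd276 and Nectin2 were at 0 of 165127 UMIs in αPD-1 + corin and are not counted. None of these counts of ligands is a test. With the filter on low counts and all 6 samples, edgeR called no ligand in monocytes, neutrophils or DC by adjusted p.

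Among the tested lineages, fibroblasts had the highest mean Cd276 and Nectin2, while endothelial cells, which were in no test, had more Nectin2. Fibroblasts had 0 of 5 ligands called against 2.46% of 6919 genes, and 1 without overlap against 25.5%. Cd276 was at 11, 22.7 and 20.0 CPM in αPD-1 and 69.9, 29.7 and 18.2 in αPD-1 + corin (log2 fold change 1.22 ± 0.50 SE, adjusted p = 0.173). Replicates 1 and 2 of αPD-1 + corin lay above αPD-1 and replicate 3 within it. Pvr was not called in any lineage, with log2 fold changes from -0.44 in monocytes to 0.17 in melanoma cells. In macrophages, where it was best counted, it was at 38.7, 32.5 and 35.3 CPM in αPD-1 and 29.3, 32.0 and 36.0 in αPD-1 + corin (log2 fold change 0.01 ± 0.13 SE, adjusted p = 0.976).

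Leaving out αPD-1 + corin replicate 3 raised the number of called pairs from 4 to 10 of 52 tested. Of these, 8 were not among the 4 calls: Vsir and Lgals9 in macrophages, Vsir in monocytes, Nectin2, Cd80 and Pdcd1lg2 in DC, and Cd276 and Lgals9 in fibroblasts, all higher. Nectin2 passed the filter in DC only through the samples where it was high. Over all genes the share called without this library was 22.2% in macrophages, 7.12% in monocytes, 5.64% in DC and 13% in fibroblasts, so nothing particular to these ligands is read from the higher count. Leaving out any other single sample gave 0 to 2 calls.

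In the sum over all kept cells, where the make-up of the sample and the level per cell cannot be told apart, only Nectin2 was called of the 9 (log2 fold change 1.79 ± 0.30 SE, adjusted p = 0.022), against 16.1% of 15676 genes. Its values were 3.37, 2.77 and 3.06 CPM in αPD-1 and 13.9, 8.56 and 7.04 in αPD-1 + corin. The median of the 9 was 0.26 against 0.03 over all genes. Macrophages and monocytes differed in the effect on no gene of 7772 (0%, 726 under an unadjusted p of 0.05), and monocytes and DC on none of 7559 (0%, 748).

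Among the receptors that these ligands engage, 9 of 11 listed were tested in T cells and 1 rose, where 9.89% of all genes were called: Tigit, the receptor of Pvr and Nectin2, at 129.9, 169 and 152 CPM in αPD-1 and 143, 258 and 223 in αPD-1 + corin (log2 fold change 0.56 ± 0.16 SE, adjusted p = 0.046). Replicate 1 of αPD-1 + corin lay within αPD-1 and the other 2 above. The Dapl1 cluster, rarer in αPD-1 + corin, had little Tigit, and with its cells left out Tigit overlapped, at 185, 227 and 192 CPM against 146, 260 and 224. In macrophages none of 9 receptors tested was called, in DC none of 8 and in monocytes none of 3.

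Of 21 other ligands, 14 were tested in T cells, and 2 rose and 1 fell, against 9.89% of all genes called. Galectin-1 (Lgals1) was at 1112, 1119.5 and 1025 CPM in αPD-1 and 1986, 1645 and 1765 in αPD-1 + corin (log2 fold change 0.77 ± 0.12 SE, adjusted p = 0.00168), galectin-3 (Lgals3) at 220.0, 162 and 193 CPM in αPD-1 and 516, 231 and 381 in αPD-1 + corin (log2 fold change 0.98 ± 0.22 SE, adjusted p = 0.0149) and Btla, a checkpoint molecule of lymphocytes that binds HVEM, at 61.3, 35.9 and 63.8 CPM in αPD-1 and 14.3, 12.3 and 10.8 in αPD-1 + corin (log2 fold change -2.14 ± 0.25 SE, adjusted p = 0.000227). B cells, in which Btla is also known, had lower marker sums within the αPD-1 + corin T cell class, as given above, and their part was not tested. With the Dapl1 cluster left out, the groups overlapped for Lgals3 and not for Lgals1 (1546, 1468 and 1271 CPM against 2033, 1664 and 1772) or Btla (52.2, 30.0 and 62.8 against 14.6, 12.5 and 10.6). Lgals1 also rose in monocytes, the only one of 11 called there, where 1.63% of all genes were, at 531, 612 and 671 CPM in αPD-1 and 1371, 1018 and 995 in αPD-1 + corin (log2 fold change 0.92 ± 0.14 SE, adjusted p = 0.00798). No other ligand was called in macrophages (14 tested) or DC (14 tested).

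The 17 regulators of PD-L1, among them interferon-γ receptor and JAK genes, gave no call in macrophages (17 tested), monocytes (16) or DC (16). In T cells 2 of 17 were called, against 9.89% of all genes, the receptor chains Ifngr1, at 218, 218 and 194 CPM in αPD-1 and 383, 332 and 269 in αPD-1 + corin (log2 fold change 0.65 ± 0.14 SE, adjusted p = 0.0095), and Ifngr2, at 20.7, 18.9 and 17.7 CPM in αPD-1 and 7.14, 5.46 and 4.64 in αPD-1 + corin (log2 fold change -1.86 ± 0.27 SE, adjusted p = 0.000969). Ifngr1 was higher and Ifngr2 lower in all 3 αPD-1 + corin samples. With the Dapl1 cluster left out this held, at 257, 251 and 222 CPM against 390, 334 and 268 for Ifngr1 and 12.4, 8.40 and 12.1 against 7.32, 5.54 and 4.66 for Ifngr2. The medians of these 17 were 0.01 in macrophages and -0.06 in T cells on the log2 scale. In the other classes Btla fell in B cells (2.02% of all genes called) and in neutrophils (0.962%) and Ctla4 rose in cDC1 (0.901%), named here after their values were seen, and no listed gene was called in melanoma cells, fibroblasts or cDC2.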

How the data were processed

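The authors deposited filtered UMI counts per gene and cell barcode, made with Cell Ranger 8.0 on GRCm39 per the labels; no other filter on the matrices is given in the sources used here, and every barcode held at least 500 UMIs. A cell had to show 600 to 4000 genes and no more than 10% of UMIs from mitochondria. The top Scrublet scores, 0.4% of barcodes per 1000, were removed as doublets (2002 barcodes), because Scrublet's own threshold called 0. Cells were normalized with sctransform 0.4.2 and clustered in Seurat 5.3.0 (20 components, resolution 0.8) without the 9 ligands and the listed pathway genes. A cluster took the name of a lineage from fixed markers, at least 3 of them above 1.5-fold in at least 10% of its cells. A further 2499 cells in mixed clusters and 312 in unnamed clusters entered no lineage. A cluster counted as mixed if it had B cell markers beside T cell or monocyte markers. A cluster within the T and NK cells also did if its markers named another lineage.

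Counts were summed per sample and lineage, leaving out samples with under 10 cells, and tested with edgeR 4.0.16 (quasi-likelihood, TMM, filterByExpr), adjusted by Benjamini-Hochberg over all genes tested in the lineage. Effects in pairs of lineages were compared with limma 3.58.1 on differences within samples. Alternatives were DESeq2 1.42.0, RLE size factors, no filter, a replicate block, leaving out each sample, other cell filters, resolution 1.2, and cells with at least 2 UMIs of another lineage's markers left out. That last filter used markers of T cells, B cells, melanoma cells and fibroblasts and the C1q genes. It used none of endothelial cells, monocytes or neutrophils, so RNA of these was not screened. On simulated counts, 191, 179 and 189 of 200 genes changed 4-fold were recovered in macrophages, DC and T cells. False calls were 8, 10 and 6 among 11522, 8642 and 9687 genes. The simulation gave all genes 1 common dispersion and had no outlying sample. A 4-fold change is also larger than that of any of the 4 called pairs, so this recovery does not show the power for the ligands.

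The ligands, gene lists and tests were chosen with earlier results of these data known. Named are the 9 ligands, for each the 3 genes most alike in level, and, of the lists, up to 3 called genes each way in macrophages, monocytes, DC or T cells. The values of 1 listed gene are not reported here. Intervals and upper limits for a count of 0 (3 UMIs over the group) cover counting error only.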

Additional observations from a re-analysis of the deposited data

How the results depend on the processing

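Directions held for Nectin2 in macrophages, Cd86 in B cells, and Cd80 and Vsir in T cells under every alternative run, but adjusted p did not stay under 0.05 for any of them. Nectin2 in macrophages missed the threshold at a log2 fold change of 1.80 with the replicate number as a block (adjusted p = 0.0685) and 1.79 with cells holding UMIs of another lineage left out (adjusted p = 0.0658). Cd80 in T cells missed the threshold at a log2 fold change of 0.78 under DESeq2 (adjusted p = 0.137), 0.72 with the replicate number as a block (adjusted p = 0.0508), 0.42 without a ceiling on genes in a cell (adjusted p = 0.357), 0.65 with no doublet removal (adjusted p = 0.0745) and 0.70 at resolution 1.2 (adjusted p = 0.0662). Vsir in T cells missed the threshold at a log2 fold change of -0.43 under DESeq2 (adjusted p = 0.206), -0.44 with the replicate number as a block (adjusted p = 0.0753), -0.23 without a ceiling on genes in a cell (adjusted p = 0.339), -0.11 with no doublet removal (adjusted p = 0.708), -0.11 at resolution 1.2 (adjusted p = 0.68) and -0.44 with cells holding UMIs of another lineage left out (adjusted p = 0.0531). With 1 sample left out the log2 fold change ran from 1.69 to 1.92 for Nectin2 in macrophages, from 0.98 to 1.31 for Cd86 in B cells, from 0.65 to 0.84 for Cd80 in T cells, from -0.49 to -0.38 for Vsir in T cells and from 1.44 to 2.01 for Nectin2 in all cells. Within macrophage clusters, an alternative chosen after the data were seen, Nectin2 was at 1.49 in the cluster led by Ms4a7 and Trem2 (adjusted p = 0.128). It was higher without overlap in that led by Lyve1 and Folr2 (means 4.52 and 11.6 CPM) and that led by Arg1 and Mmp12 (1.84 and 4.49), with too few UMIs to test, and overlapped in that led by Camk1d and Gphn (1.96 and 3.86). Vsir in the Lyve1 cluster did not overlap (149 and 266 CPM, 0.98, adjusted p = 0.0625). In that led by Camk1d and Gphn Lgals9 was at -0.18 and Cd274 at -0.092. RLE size factors changed no call of these ligands and moved the median of all genes by over 0.1 in no class. Correlations of same-numbered samples ran from -0.197 to 0.126 and those of differently numbered samples from -0.131 to 0.224. The replicate numbers thus gave no sign of a pairing, though 3 samples per group cannot exclude one. The block changed no call of a ligand in a lineage apart from those of Nectin2, Cd80 and Vsir named here.

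The number of genes called was 15 in macrophages, 127 in monocytes, 37 in neutrophils, 46 in DC, 161 in B cells, 979 in T cells, 0 in melanoma cells, 170 in fibroblasts, 65 in cDC1, 5 in cDC2, 23 in mature DC and 2524 in all cells. It became 260 in macrophages, 90 in neutrophils, 70 in DC, 536 in T cells, 6 in melanoma cells, 274 in fibroblasts, 8 in cDC2 and 4257 in all cells under DESeq2. It became 846 in macrophages, 527 in monocytes, 290 in neutrophils, 533 in DC, 102 in melanoma cells, 567 in fibroblasts, 386 in cDC1, 150 in cDC2 and 120 in mature DC with no filter on low counts. It became 24 in macrophages, 28 in monocytes, 21 in DC, 67 in B cells, 40 in cDC1, 16 in cDC2, 0 in mature DC and 468 in all cells with the replicate number as a block. It became 52 in macrophages, 18 in neutrophils, 114 in DC, 279 in T cells, 47 in fibroblasts, 129 in cDC1 and 8 in cDC2 without a ceiling on genes in a cell. It became 4 in macrophages, 83 in monocytes, 2 in DC, 0 in cDC1, 8 in cDC2 and 64 in mature DC with cells holding UMIs of another lineage left out. It became 10 in cDC2 with no doublet removal. With 1 sample left out it ran from 0 to 2645 in macrophages, from 12 to 580 in monocytes, from 0 to 82 in neutrophils, from 13 to 508 in DC, from 66 to 154 in B cells, from 373 to 1029 in T cells, from 0 to 7 in melanoma cells, from 22 to 924 in fibroblasts, from 23 to 222 in cDC1, from 0 to 166 in cDC2, from 12 to 121 in mature DC and from 58 to 5068 in all cells. Differences of effects between lineages, of which none was called, ran from 0 to 1 calls for macrophage against monocyte and from 0 to 6 calls for macrophage against T with 1 sample left out.

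Values that were not called changed sign in 73 cases, none of which was past the threshold in all 6 samples. Under DESeq2 the sign turned for Pvr in T cells (0.020), Cd274 in melanoma cells (-0.036) and Cd274 in fibroblasts (0.056). With no filter on low counts the sign turned for Cd274 in neutrophils (0.067), Pdcd1lg2 in neutrophils (0.18), Cd80 in neutrophils (0.13), Lgals9 in neutrophils (0.020), Cd274 in B cells (-0.034), Lgals9 in melanoma cells (0.0087), Cd274 in fibroblasts (0.035) and Vsir in cDC2 (0.028). With the replicate number as a block the sign turned for Cd274 in macrophages (-0.12), Pvr in T cells (0.011), Cd274 in melanoma cells (-0.19) and Vsir in cDC2 (0.019). Without a ceiling on genes in a cell the sign turned for Cd274 in T cells (0.062), Pvr in T cells (0.19), Pvr in melanoma cells (-0.11), Cd274 in fibroblasts (0.27) and Vsir in cDC2 (0.32). With cells holding UMIs of another lineage left out the sign turned for Cd86 in macrophages (-0.026), Pvr in macrophages (-0.077), Pvr in B cells (0.13), Cd274 in melanoma cells (-0.086), Pvr in fibroblasts (0.054) and Cd86 in cDC2 (-0.012). With no doublet removal the sign turned for Pvr in macrophages (-0.038), Cd274 in fibroblasts (0.28) and Vsir in cDC2 (0.067). At resolution 1.2 the sign turned for Pvr in macrophages (-0.0043) and Vsir in cDC2 (0.036). Cd274 ran from -0.53 to 0.48 in macrophages, from -0.13 to 0.47 in monocytes, from -0.57 to 0.061 in neutrophils, from -0.24 to 0.26 in B cells, from -0.34 to 0.54 in melanoma cells, from -0.57 to 0.60 in fibroblasts, from -0.16 to 0.53 in cDC2 and from -0.036 to 0.57 in all cells with 1 sample left out. Pdcd1lg2 ran from -0.077 to 0.70 in macrophages, from -0.12 to 0.76 in monocytes, from -0.46 to 0.40 in neutrophils, from -0.047 to 1.06 in B cells, from -0.055 to 0.39 in cDC1 and from -0.063 to 0.50 in all cells with 1 sample left out. Cd86 ran from -0.050 to 0.21 in macrophages, from -0.0014 to 0.30 in cDC2 and from -0.085 to 0.24 in all cells with 1 sample left out. Pvr ran from -0.059 to 0.083 in macrophages, from -0.34 to 0.095 in B cells, from -0.31 to 0.15 in T cells, from -0.045 to 0.41 in melanoma cells, from -0.38 to 0.17 in fibroblasts and from -0.50 to 0.12 in cDC1 with 1 sample left out. Lgals9 ran from -0.14 to 0.11 in monocytes, from -0.45 to 0.24 in neutrophils and from -0.18 to 0.15 in melanoma cells with 1 sample left out. Cd80 ran from -0.45 to 0.35 in neutrophils with 1 sample left out. Vsir ran from -0.21 to 0.47 in B cells and from -0.23 to 0.38 in cDC2 with 1 sample left out. Nectin2 ran from -0.036 to 0.23 in melanoma cells with 1 sample left out. The cause of these changes was not tested. A further 29 values passed the threshold only under an alternative, 494 differences between neighbouring lineages moved by less than 1 SD and 10 by more, and without thinning 67 of 72 shares of cells were larger by more than 1 SD. The 11 to 48 B cells of the αPD-1 + corin samples, the 17 to 21 neutrophils of the αPD-1 samples and the 6 to 62 mature DC per sample limit what these classes can show.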

Other observations

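Cells outside the 8 lineages also carried some of the ligands, and were not part of any test. NK cells, from 46 to 143 per sample, had Pdcd1lg2 at 57.5, 51.6 and 37.5 CPM in αPD-1 and 72.8, 51.2 and 97.5 in αPD-1 + corin, on 4 to 30 UMIs, above the T cells of the same sample in 6 of 6 samples. Cd274 in NK cells was at 83.1, 84.5 and 84.3 CPM in αPD-1 and 10.4, 64 and 65.0 in αPD-1 + corin, with the lowest value resting on 1 UMI. NK cells had no UMI of Nectin2 or Cd276 in any sample.

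Endothelial cells, from 11 to 49 per sample, held more Nectin2 than fibroblasts in 6 of 6 samples, at 96.8, 131 and 60.8 CPM in αPD-1 and 73.3, 58.4 and 105 in αPD-1 + corin, on 9 to 21 UMIs. Their Lgals9 was at 134, 277 and 173 CPM in αPD-1 and 304, 265 and 236 in αPD-1 + corin. Cd80 and Cd86 were at or near 0 in them, with at most 2 and 6 UMIs in a sample.

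Single cells of the mature DC class held Cd274 and Pdcd1lg2 RNA together in 33 of 163 cells, with Cd274 in 113 and Pdcd1lg2 in 45. If the 2 genes were independent, 31.2 such cells would be expected, so no excess was seen there. The 163 include the 6 cells of αPD-1 + corin replicate 3. In macrophages both were counted in 224 of 9731 cells (139 expected), with Cd274 in 3631 and Pdcd1lg2 in 373. Both were in 28 of 664 cDC1 (16.1 expected), 41 of 666 cDC2 (22 expected) and 25 of 1563 monocytes (14.7 expected). Cells of greater depth hold more UMIs of any gene, so these counts describe the cells as sequenced.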
